A study of Mus musculus with 2 samples.

Results

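The genes described are Epcam, Itgae, Cdh1, Ocln, Jaml, Cxadr, Cldn3 and Cldn7, 8 of the 31053 genes counted in single cells of the proximal small intestine. They code for proteins that join epithelial cells to each other or lymphocytes to epithelium, and each was taken as the row carrying its symbol. The genes were selected on measured UMI levels and shares of cells in these same libraries, so their own values are given as a description and carry no test. The question was whether T cells with a Trdc or a Cd8b1 transcript, and plasma cells, carried these transcripts beyond the amount that free epithelial RNA in the droplets would bring. That amount was set by Fabp1, Rbp2 and Krt19, which code for 2 lipid- or retinoid-binding proteins of enterocytes and a keratin.

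Cells came from 2 mice of 1 group, called APC: Villin-CreERT2 Apc fl/fl animals that received 2 intraperitoneal injections of 2 mg tamoxifen with 24 h between them and were sampled on day 4. The villin promoter drives the Cre recombinase in intestinal epithelium, so Apc is lost there while lymphocytes keep it. No library of an untreated or wild-type mouse was analysed here, age and strain of these mice were not stated in the sources used (most of the study's work was in C57BL/6J), and every comparison is therefore between cell classes of the same 2 mice. Tissue was digested whole and dead cells were sorted out with DAPI, and no sort or label in these data places a barcode inside the epithelium, so the names below are those of gates on transcripts and not of intraepithelial cells.

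Intraepithelial lymphocytes are T cells, many of them with a gamma-delta receptor, that sit between enterocytes. The integrin chain αE, the product of Itgae (CD103), pairs with β7 and binds E-cadherin (Cdh1) on the enterocyte. Jaml on the lymphocyte binds the coxsackievirus and adenovirus receptor (Cxadr) at epithelial junctions. Epcam is an adhesion molecule of nearly all simple epithelia that is known to hold Cldn7, and occludin (Ocln) and the claudins Cldn3 and Cldn7 are strands of the tight junction.

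Unique molecular identifiers (UMIs), each standing for 1 counted transcript molecule, numbered 81060645 in the 7941 kept barcodes of mouse 1 and 35474260 in the 6957 of mouse 2. The medians were 4381 and 2803 UMIs a barcode, and the libraries shared 16 kept barcode sequences. The Trdc gate (a Trdc and a Cd3 UMI, no Cd8b1 or Cd4) held 1428 and 3130 cells, the Cd8b1 gate 542 and 307, the Cd4 gate 117 and 85, and the plasma gate (20% or more immunoglobulin UMIs, with Jchain and no Cd3) 1773 and 502. B cells (327 and 71), macrophages (415 and 243), dendritic cells (63 and 43) and epithelial cells (577 and 151, each with 3 or more of 8 epithelial genes) completed the 8 gates. Median depth was 3382.5 and 2663.5 UMIs in the Trdc gate but 21547 and 19960 in plasma cells. Markers set aside for checking were highest in their own gate for 7 and 6 of 7 genes of the Trdc gate and for 6 of 6 of plasma cells in both mice, but for only 1 of 7 of the Cd8b1 gate, where Gzma reached 5787 and 10509 UMIs per 1000000 UMIs (CPM) against 18816 and 19163 in the Trdc gate. Cells of the Cd8b1 gate are therefore named by the gating transcript alone.

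On GRCm38 (the mm10 build, GENCODE vM21 annotation), Epcam lies at chr17:87635979-87651129 on the plus strand and Itgae at chr11:73090583-73147446 (+). Cdh1 lies at chr8:106603351-106670246 (+), Ocln at chr13:100496507-100552718 (−) and Jaml at chr9:45079183-45108534 (+). Cxadr lies at chr16:78301489-78359774 (+), Cldn3 at chr5:134986214-134987472 (+) and Cldn7 at chr11:69964779-69967885 (+). These are whole genes, of 10 exons in Epcam, 31 in Itgae and 1 in Cldn3. Genes of the opposite strand overlap Itgae (Haspin), Jaml (Gm10684), Cxadr (Btg3) and Cldn3 (Wbscr25), and the sources used here do not say whether the counting used strand.

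Promoter sequences from RefSeq (GRCm38.p6) matched 5 of the 8 genes, with 7 promoters. They are shown for Epcam and Cldn7 because the data below part these 2 genes, which are expressed together in epithelium. Capitals mark E-boxes, searched as CACCTG and its other strand CAGGTG, which do not overlap, in the 250 bases before the start; 17.2% of all 32851 promoters hold 1 or more and 2.06% hold 2 or more. The first line is chr17:87635729-87635978 and the second chr11:69965171-69965420, both on the plus strand. The Epcam window has an E-box 187 and 19 bases before the start, and this Cldn7 window has them 97 and 57 bases before, while the other Cldn7 promoter (chr11:69964529-69964778) has none. A match in letters is a description and not a bound site.
Epcam: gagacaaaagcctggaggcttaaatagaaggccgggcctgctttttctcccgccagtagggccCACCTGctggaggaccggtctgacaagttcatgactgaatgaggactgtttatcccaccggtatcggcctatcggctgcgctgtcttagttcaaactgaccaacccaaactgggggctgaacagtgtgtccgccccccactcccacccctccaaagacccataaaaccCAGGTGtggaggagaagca
Cldn7: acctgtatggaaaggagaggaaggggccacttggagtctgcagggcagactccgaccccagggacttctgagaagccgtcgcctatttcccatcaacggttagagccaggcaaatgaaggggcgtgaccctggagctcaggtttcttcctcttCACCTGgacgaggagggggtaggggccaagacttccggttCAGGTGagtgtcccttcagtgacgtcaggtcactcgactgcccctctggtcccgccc

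Epcam was found in every gate, highest in epithelium and spread over many cells of the Trdc and plasma gates. In epithelial cells it was at 1369 CPM, taken over all UMIs of the gate together, in mouse 1 and 633 in mouse 2. In the Trdc gate it was at 164 CPM (95% interval 153 to 175, exact Poisson, for counting error only) and 99.9 (93.7 to 106), or 132 ± 45.2 (SD, n = 2 mice). In plasma cells it was at 81.9 (79.0 to 84.8) and 72.4 (67.3 to 77.8), or 77.2 ± 6.68. The epithelial level thus stood above both lymphocyte gates in each mouse, and the plasma level was the most alike between mice. In B cells, which should lack the gene and serve as the measure of background, it was at 20.7 (13.7 to 29.9) and 13.0 (2.69 to 38.1).

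The Cd8b1 and Cd4 gates gave different Epcam levels in the 2 mice. The Cd8b1 gate had 196 CPM (178 to 215) in mouse 1 and 18.7 (11.3 to 29.2) in mouse 2. In the Cd4 gate of mouse 1, 233 of the 267 Epcam UMIs came from 1 barcode, and mouse 2 had 9 UMIs in 85 cells (27.9 CPM). The 10 cells richest in Epcam held 79.8% of its UMIs in the Cd8b1 gate of mouse 1, against 29.2% and 5.48% in the Trdc gate and 9.25% and 11.7% in plasma cells. A few barcodes therefore made up the Cd8b1 and Cd4 levels of mouse 1, while the Trdc and plasma levels came from many cells. Dendritic cells had 316 and 117 CPM and macrophages 71.1 and 6.46. In the order of levels, 2 of the 7 neighbouring pairs of gates in mouse 1 and 4 in mouse 2 had intervals that overlapped.

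**Figure D1:**
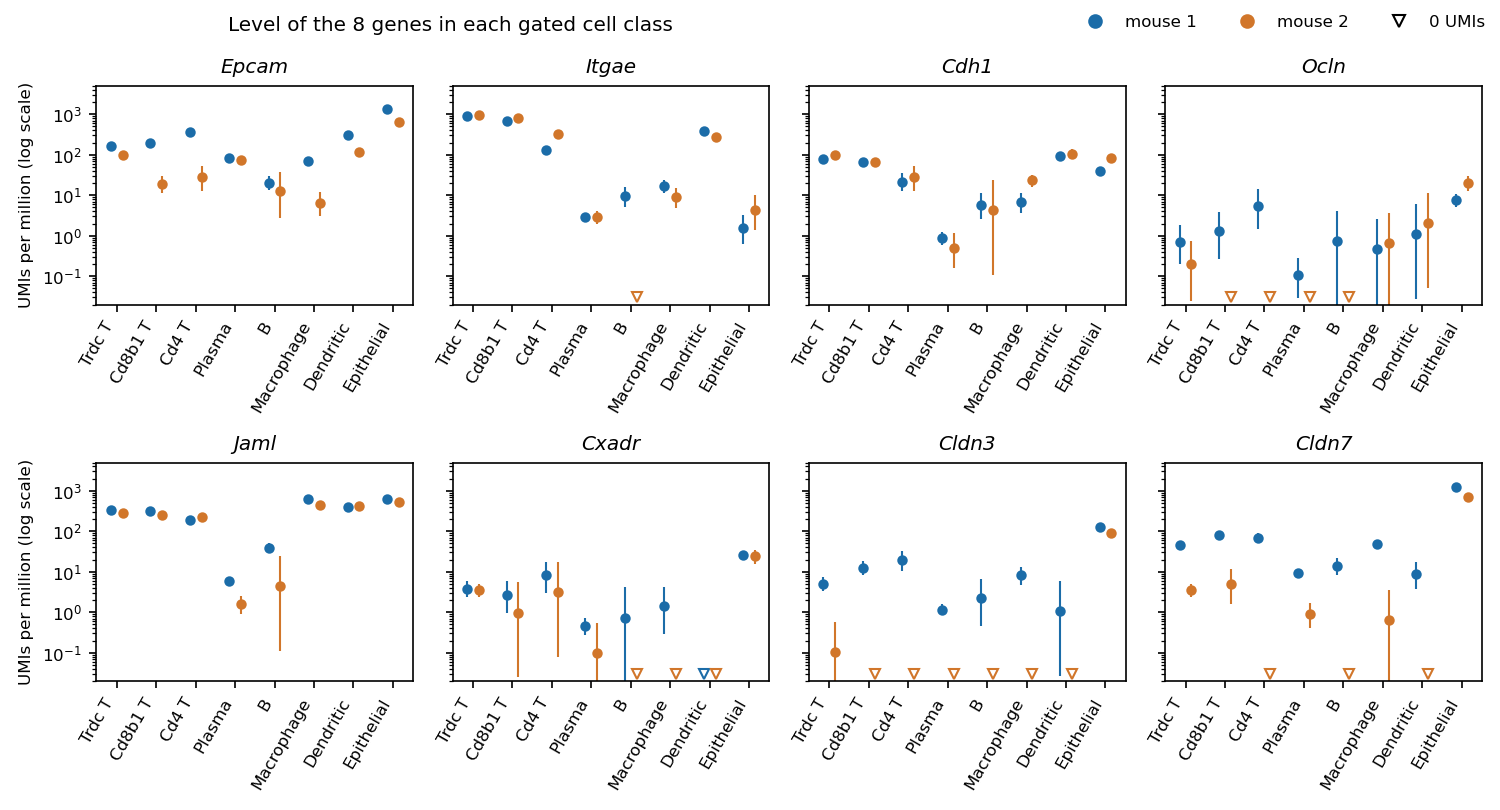
CPM (log scale) of each of the 8 genes in the 8 gates, 1 point per mouse, with 95% Poisson intervals for counting error and open marks for 0 UMIs. Epcam, Jaml, Cldn7, Cldn3, Ocln and Cxadr are highest in epithelial cells in both mice, Itgae in the Trdc gate (905 and 966) and Cdh1 in dendritic cells (95.9 and 104).

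A transcript of Epcam was seen in 29.6% of Trdc-gated cells of mouse 1 (27.3 to 32.1%, exact binomial) and in 22.8% of those of mouse 2 (21.3 to 24.3%). In plasma cells the share was 60.6% (58.3 to 62.9%) and 61.8% (57.3 to 66.0%), at a depth several times that of the T cells. B cells, at median depths of 3350 and 2338 UMIs, had 6.42% (4.02 to 9.65%) and 1.41% (0.0357 to 7.60%). With every cell thinned to 1000 UMIs, the share was 10.8% and 9.23% in the Trdc gate, 7.48% and 6.94% in plasma cells, and 1.69% and 0.0803% in B cells. At matched total depth the Trdc and plasma shares thus lay close together, and both stood above the B-cell share in each mouse. Immunoglobulin genes took 67.1% and 67.6% of the UMIs of plasma cells, against 2.40% and 0.436% in the Trdc gate. The thinned UMIs included them, so these gates were not matched in UMIs of other genes. The thinned share of the Cd8b1 gate, 3.88% and 1.81%, was nearer to that of B cells, and epithelial cells had 59.8% and 36.4%.

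Cells with 3 or more Epcam UMIs were 51 of the Trdc gate in mouse 1 (3.57%) and 49 in mouse 2 (1.57%). In plasma cells they were 414 (23.4%) and 104 (20.7%). In the Cd8b1 gate they were 16 and 0 cells, so that in mouse 2 no Cd8b1-gated cell had more than 2.

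**Figure D2:**
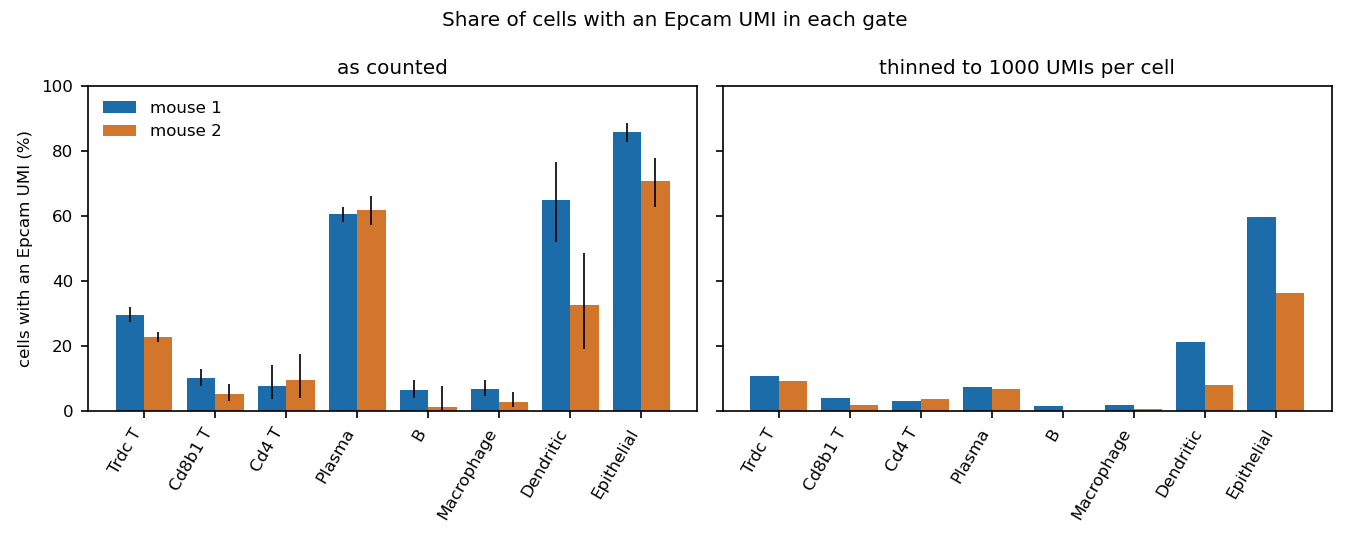
Percent of cells with an Epcam UMI in each gate, as counted and after thinning every cell to 1000 UMIs, immunoglobulin UMIs included, for both mice. Plasma cells have 60.6% and 61.8% as counted and 7.48% and 6.94% after thinning, against 10.8% and 9.23% in the Trdc gate.

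Itgae, the integrin chain of intraepithelial T cells, marked the T-cell gates. The Trdc gate had 905 CPM (880 to 930) and 966 (947 to 986), or 936 ± 43.4 (SD, n = 2). The Cd8b1 gate had 680.1 (646 to 715) and 817 (763 to 875). The Cd4 gate, whose cells in the gut lie mostly in the lamina propria, had 134 (109 to 163) and 326 (267 to 395). The Trdc and Cd8b1 levels were above the Cd4 level in both mice, with intervals that did not overlap. Dendritic cells, a class in which Itgae marks a known subset, had 391 and 276, and macrophages 16.7 and 9.04. Epithelial cells had 1.55 (7 UMIs) and 4.27 (5 UMIs), and plasma cells 2.98 and 2.94. None of 71 B cells of mouse 2 had an Itgae UMI, which allows up to 4.23% of cells with a UMI and sets no limit on cells expressing the gene.

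A UMI of Itgae was seen in 91.0% and 87.2% of Trdc-gated cells (58.9% and 60.9% thinned) and in 83.6% and 87.3% of Cd8b1-gated cells (51.3% and 57.0% thinned). The background share in epithelial cells, which should lack the gene, was 1.04% and 3.31% (0.301% and 0.895% thinned), at median depths of 5863 and 4435. Plasma cells had 5.13% and 5.78% as counted but 0.333% and 0.408% thinned. The thinned share was at the epithelial level in mouse 1 and under it in mouse 2. Immunoglobulin genes, however, took 67.1% and 67.6% of the UMIs of plasma cells. Over UMIs outside these genes, a scale added after the values were seen, Itgae was at 9.06 and 9.09 CPM in plasma cells. Epithelial cells had 1.57 and 4.27 on it, with intervals that overlapped in mouse 2 (6.14 to 13.0 and 1.39 to 9.97). Of the Trdc-gated cells with an Epcam UMI, 94.1% and 87.8% had an Itgae UMI, against 89.7% and 87.0% of those without.

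Cdh1, E-cadherin, is the ligand of the Itgae product, and its transcript was found in the same T-cell gates. The Trdc gate had 80.2 CPM (72.9 to 88.0) and 97.1 (91.0 to 103), or 88.6 ± 11.9 (SD, n = 2), and the Cd8b1 gate 66.1 (55.9 to 77.7) and 66.9 (51.9 to 84.8). Epithelial cells had 38.9 (33.3 to 45.1) and 81.0 (65.6 to 99.1), and dendritic cells 95.9 and 104. The Trdc level was above the epithelial level in mouse 1, and in mouse 2 their intervals overlapped. The Cd4 gate had 21.8 and 27.9, B cells 5.91 and 4.34, and plasma cells 0.866 and 0.491. The transcript was spread thinly: no Trdc-gated cell held more than 4 UMIs in mouse 1 or 5 in mouse 2, and 25.1% and 23.9% of them held 1 or more (8.38% and 9.69% thinned). In plasma cells 1.58% and 0.996% did (0.0668% and 0.0398% thinned), under the thinned B-cell shares of 0.272% and 0.679%.

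Jaml, a junctional adhesion molecule known from leukocytes, was highest in epithelial and myeloid cells of these mice. Epithelial cells had 637 and 527 CPM, macrophages 616 and 446, and dendritic cells 401 and 418. The Trdc gate had 338 (323 to 353) and 279 (268 to 289), or 308 ± 41.7 (SD, n = 2). The Cd8b1 gate had 321 (298 to 346) and 259.7 (229 to 293), and the Cd4 gate 189.6 (159 to 224) and 227 (178 to 285). On the scale of all UMIs the order of the 8 gates was the same in both mice, and plasma cells were lowest with 5.82 and 1.57. Over UMIs outside immunoglobulin genes, plasma cells had 17.7 and 4.85 and B cells 40.4 and 4.57, so plasma cells were not under B cells in mouse 2. Epithelial cells, high in Jaml, are no background for it. B cells, at 39.1 and 4.34 (1 UMI in mouse 2), were used as one. A Jaml UMI was seen in 63.0% and 50.2% of Trdc-gated cells (27.4% and 23.5% thinned), against 4.59% and 1.41% of B cells (1.47% and 0.0798% thinned).

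Cxadr, the partner that Jaml binds, was scarce outside epithelium. Epithelial cells had 26.7 CPM (22.2 to 31.9) and 23.9 (15.9 to 34.5). The Trdc gate had 3.79 (2.35 to 5.80) and 3.51 (2.43 to 4.91), from 21 UMIs in 21 cells and 34 UMIs in 31 cells. The Cd8b1 gate had 6 UMIs and 1 UMI, plasma cells 17 and 1, and the Cd4 gate 6, all in 1 cell, and 1. Dendritic cells had none, which allows up to 4.76% and 6.98% of their cells with a UMI; even of epithelial cells only 14.9% and 11.3% had one. Apart from the Trdc gate, no lymphocyte gate had enough Cxadr UMIs for its 2 mice to be compared.

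The claudins and occludin stayed with epithelium. Cldn7 was at 1213 and 685 CPM in epithelial cells, beside Epcam at 1369 and 633, but at 46.8 (41.3 to 52.9) and 3.51 (2.43 to 4.91) in the Trdc gate. It was at 81.7 and 4.92 in the Cd8b1 gate and at 9.44 and 0.883 in plasma cells. In the Trdc gate, 10 cells held 70.7% of the Cldn7 UMIs of mouse 1 and 91.2% of those of mouse 2. Cldn3 was at 125 and 89.6 in epithelial cells and at 5.06 and 0.103 in the Trdc gate, with no UMI in 502 plasma cells of mouse 2 (which allows up to 0.598% of cells with a UMI). Ocln was low everywhere, with 34 and 23 UMIs in epithelial cells, 4 and 2 in the Trdc gate and 4 and 0 in plasma cells. In the Trdc and Cd8b1 gates the claudins thus differed widely between the mice, whereas Itgae, Cdh1 and Jaml had like levels in both.

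The references showed the same unevenness. Their summed level was 14330 and 22515 CPM in epithelial cells, 626 and 198 in the Trdc gate, 576 and 145 in the Cd8b1 gate and 121 and 7.46 in plasma cells. The Trdc level was thus 22.9-fold and 114-fold below the epithelial level. The 10 cells richest in references held 76.5% and 86.6% of the reference UMIs of the Trdc gate and 67.7% and 44.7% of those of plasma cells. A reference UMI was seen in 22.8% and 7.12% of Trdc-gated cells and in 42.9% and 10.4% of plasma cells. A UMI of the 8 epithelial gate genes was also seen in 9.66% and 2.75% of Trdc-gated cells and in 16.6% and 3.39% of plasma cells. The part that free RNA, doublets and attached cell fragments play in these counts was not tested.

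To set each gene against this background, its UMIs per reference UMI in a gate were divided by the same ratio in the epithelial cells of that mouse. If epithelial RNA of that make-up were the only source, this observed-over-expected ratio would be 1. It carries an exact conditional 95% interval for counting error, and a gene was counted when the interval lay above 1 in both mice. In the Trdc gate this was so for 5 of the 8 genes (Epcam, Itgae, Cdh1, Jaml and Cxadr), in the Cd8b1 gate for 4 (Epcam, Itgae, Cdh1 and Jaml) and in plasma cells for 3 (Epcam, Itgae and Cdh1). The rule for picking the genes used these cells, so the counts are no finding about the genes as a set. Among all 5834 genes with at least 20 UMIs in epithelial cells of each mouse, most of them transcribed in lymphocytes too, the same held for 90.5%, 89.5% and 90.4%. The 22 epithelial control genes, such as Fabp2 and Apoa1, are the nearer scale. Of them 2 passed in the Trdc gate (Anpep, Mttp), 1 in the Cd8b1 gate (Lgals4) and 1 in plasma cells (Mttp). Epcam, Itgae, Cdh1, Jaml and Cxadr also passed in the Cd4 gate, but Epcam and Cxadr from few cells. In mouse 1, 3 cells of that gate held 259 of its 267 Epcam UMIs, and 1 cell held all 6 Cxadr UMIs. In mouse 2 it had 9 Epcam UMIs and 1 Cxadr UMI beside 11 reference UMIs. In dendritic cells and macrophages Epcam, Itgae, Cdh1 and Jaml passed, and in B cells Cdh1 (1 UMI in mouse 2). The Epcam ratio of dendritic cells was 29.2 and 59.6. For these other gates the share over all genes was not computed, so their passes are no finding about the genes as a set.

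In the Trdc gate the 8 genes spread widely on this scale. Itgae had 13400 and 25826 times the expected UMIs, Cdh1 47.2 (39.4 to 56.8) and 137 (110 to 171), and Jaml 12.1 and 60.3. Epcam had 2.74 (2.53 to 2.96) and 18.0 (16.2 to 20.05), that is 907 UMIs where 331 were expected and 968 where 53.8 were. Cxadr had 3.25 (1.94 to 5.20) and 16.8 (9.83 to 28.7). Cldn7 had 0.883 (0.773 to 1.01) and 0.584 (0.4005 to 0.826), Cldn3 0.925 (0.608 to 1.35) and 0.131 (0.00329 to 0.749), and Ocln 2.20 (0.568 to 6.18) and 1.20 (0.137 to 4.86). Cldn7 and Cldn3 were therefore at or under the level of the references in both mice, and Epcam was above it. The control genes ran from 0.470 (Reg3g) to 7.33 (Anpep) with a median of 1.09 in mouse 1, and from 0.180 (Reg3b) to 15.2 (Mttp) with a median of 0.770 in mouse 2. The Epcam ratio lay inside that range in mouse 1 and above it in mouse 2. In mouse 1 only Anpep was above Epcam, as the next control gene was Mttp with 1.64. Anpep was itself at 115 CPM in dendritic cells and at 20.3 in epithelial cells of mouse 1.

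In the Cd8b1 gate the ratio of Epcam was 3.56 (3.18 to 3.98) and 4.60 (2.68 to 7.49), inside the range of the control genes, whose highest values were 19.03 (Anpep) and 22.4 (Mttp). Itgae reached 10949 and 29841, Cdh1 42.4 and 129, and Jaml 12.6 and 76.7, all above that range in both mice except Jaml in mouse 1. Cldn7 had 1.68 (1.43 to 1.96) and 1.12 (0.357 to 2.68). After Anpep, the highest control gene of mouse 1 was Pigr with 2.04, which is under Epcam. Among control genes with a UMI in mouse 2, Mttp was followed by Anpep with 6.30, from 2 UMIs.

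In plasma cells the ratio of Epcam was 7.07 (6.70 to 7.46) and 345 (269 to 448), above every control gene in both mice, the highest of which was Mttp with 2.72 and 65.1. Its partner Cldn7 had 0.920 (0.820 to 1.03) and 3.89 (1.71 to 7.82), and Cldn3 had 1.10 in mouse 1 and no UMI in mouse 2. Cdh1 had 2.63 (1.75 to 3.86) and 18.3 (5.64 to 46.0), from 32 and 5 UMIs, and Jaml 1.08 (0.932 to 1.24) and 8.99 (4.86 to 15.7). Only 76 reference UMIs were seen in plasma cells of mouse 2, and Krt19, itself a reference, had a ratio of 9.91 (4.68 to 19.1) there against 0.773 in mouse 1. Ratios of plasma cells of mouse 2 are to be read against that spread, and the ratio of Epcam stood above it.

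**Figure D3:**
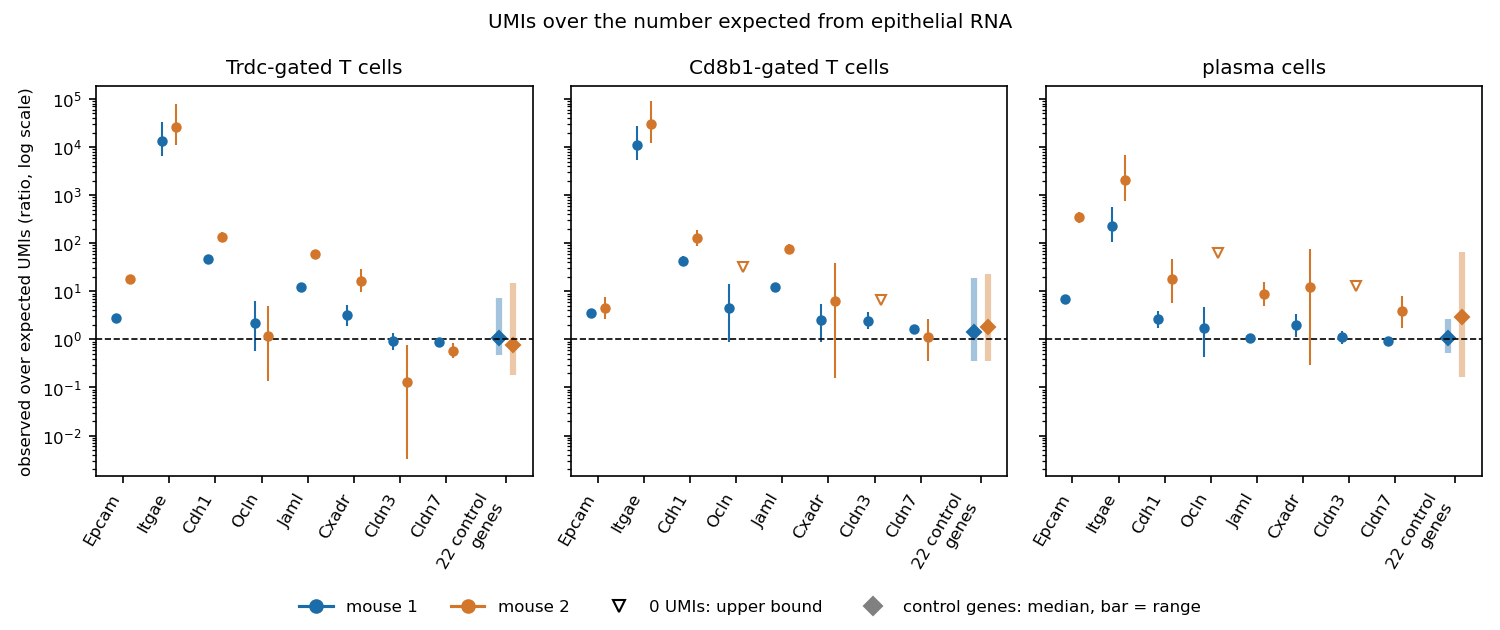
Observed over expected UMIs (ratio, log scale) of the 8 genes in Trdc-gated, Cd8b1-gated and plasma cells, per mouse with 95% intervals, beside the median and range of the 22 control genes. Epcam in plasma cells (7.07 and 345) lies above all control genes in both mice, whereas Cldn7 and Cldn3 of the Trdc gate lie at or under 1.

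The result for Epcam in T cells depended on which epithelial cells stood for the source of free RNA. Epcam was at 9.56 and 2.81 UMIs per 100 reference UMIs in all epithelial cells but at 25.7 and 21.9 in cycling ones (a Mki67 or Top2a UMI, 92 and 30 cells) and at 35.3 and 65.3 in 42 and 25 epithelial barcodes with raised mitochondrial UMIs. Against the cycling cells, the ratio of Epcam was 1.02 (0.920 to 1.13) and 2.31 (1.98 to 2.71) in the Trdc gate and 1.32 (1.16 to 1.51) and 0.591 (0.339 to 0.978) in the Cd8b1 gate. Against the barcodes with raised mitochondrial UMIs, it was 0.741 (0.619 to 0.889) and 0.775 (0.644 to 0.934) in the Trdc gate. In these gates the call was lost with either source. In plasma cells Epcam remained above 1 in both mice, with 2.63 (2.42 to 2.86) and 44.4 (33.6 to 58.9) against cycling cells and 1.91 (1.61 to 2.27) and 14.9 (11.1 to 20.1) against the raised-mitochondrial ones. Against B cells, taken as carriers of free RNA alone, plasma cells had 11.2 (7.60 to 17.0) and 12.9 (2.13 to 89.4), and the Trdc gate had 4.33 (2.93 to 6.63) and 0.675 (0.114 to 4.62), so that its call was lost. The B cells of mouse 2 held 3 Epcam and 4 reference UMIs, and values against them are that uncertain. In mouse 1 the 10 richest of the B cells held 89.6% of their 463 reference UMIs, so this source was uneven too.

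Cdh1 in the Trdc gate kept ratios above 1 with cycling cells as the source, 7.52 (5.79 to 9.89) and 14.5 (10.5 to 20.6), and with the raised-mitochondrial barcodes, 1.52 (1.11 to 2.12) and 6.0998 (4.13 to 9.31). Cxadr in that gate did not, with 0.864 (0.465 to 1.58) against cycling cells in mouse 1 and 3.49 (1.44 to 10.2) in mouse 2. Cdh1 in plasma cells was at 0.419 (0.266 to 0.648) against cycling cells in mouse 1 and at 1.94 (0.580 to 5.11) in mouse 2, so its call was lost.

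A second description used the cells in which no reference UMI was seen at all. In the Trdc gate, Epcam was at 117 CPM in such cells of mouse 1 and 289 in the others, and at 100.2 and 97.8 in mouse 2. Cldn7 in the same cells was at 5.97 against 155 in mouse 1 and 0.681 against 32.2 in mouse 2, which is 26.0-fold and 47.3-fold apart. Cldn7 was thus found where the references were found, while most of the Epcam level remained without them. Itgae was at 935 against 826 and 976 against 866, Cdh1 at 83.3 against 72.0 and 98.6 against 81.7, and Jaml at 324 against 374 and 272 against 342, so none of the 3 followed the references as Cldn7 did.

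In plasma cells Epcam was at 73.6 CPM without a reference UMI and 91.0 with one in mouse 1, and at 72.2 and 73.9 in mouse 2. Cldn7 was at 1.80 against 17.9 and at 0.663 against 2.64. In the Cd8b1 gate Epcam followed the references, at 59.0 against 482 in mouse 1 and 12.0 against 79.8 in mouse 2.

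**Figure D4:**
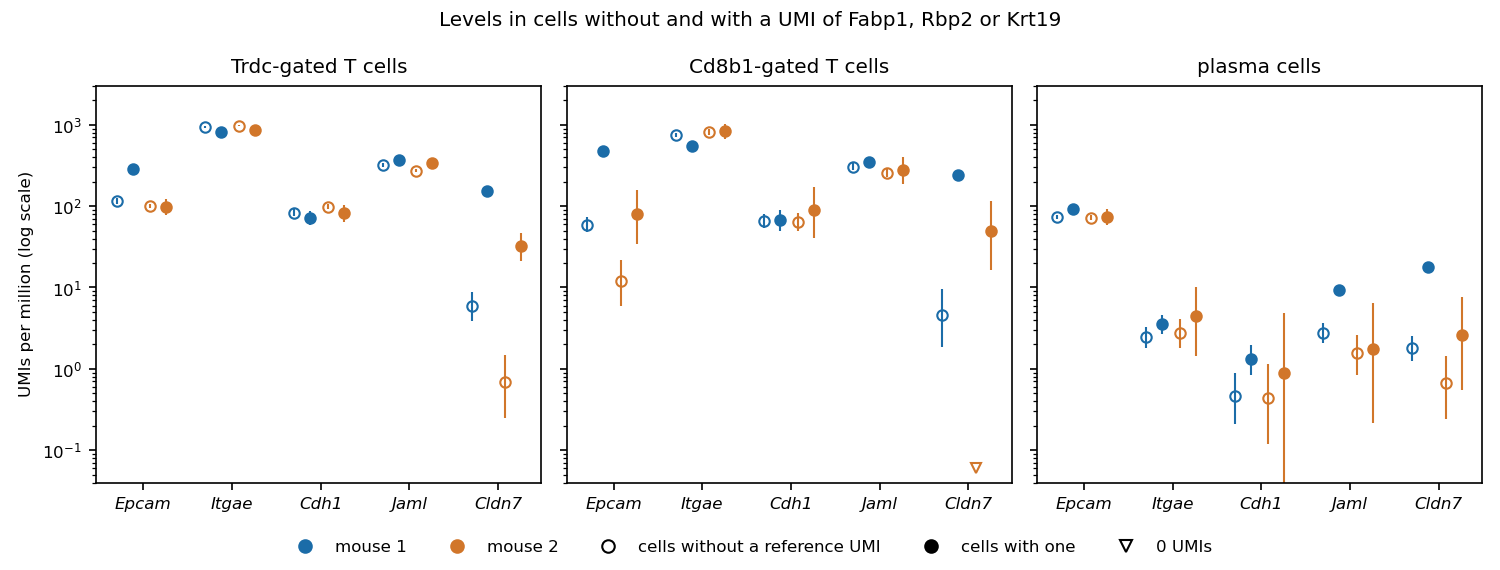
CPM (log scale) of Epcam, Itgae, Cdh1, Jaml and Cldn7 in cells without and with a UMI of Fabp1, Rbp2 or Krt19, in 3 gates and both mice. In the Trdc gate Cldn7 is 26.0-fold and 47.3-fold higher in cells with a reference UMI, while Itgae, Cdh1 and Jaml hardly differ.

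Within single Trdc-gated cells, with no matching of depth, Epcam was seen more often beside Cldn7 than beside Cdh1 in mouse 1. Of the cells with a Cldn7 UMI, 75.6% and 30.8% (34 and 4 cells) had an Epcam UMI, against 28.1% and 22.7% of the others. Of those with a Cdh1 UMI, 32.0% and 22.8% had one, against 28.8% and 22.8%. After thinning, a reference UMI was seen in 10.7% of Trdc-gated cells with Epcam and 7.90% of those without in mouse 1, and in 3.01% and 2.97% in mouse 2. The reference level, by contrast, was 1613 CPM in cells with Epcam and 71.7 in those without in mouse 1, and 583 and 52.0 in mouse 2. Cells with Epcam thus held far more reference UMIs in sum, but at matched depth held one hardly more often in mouse 2.

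Immunoglobulin transcripts took 67.1% and 67.6% of the plasma-cell UMIs, which lowers the CPM of every other gene of these cells. In CPM over UMIs outside immunoglobulin genes only, a scale added after the values were seen, Epcam was at 249 (240 to 258) and 224 (208 to 240) in plasma cells, against 168 and 100.4 in the Trdc gate. The order of these gates was thus reversed by the scale: the Trdc gate was higher on the scale of all UMIs, and plasma cells were higher on that of the rest.

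Free RNA of T cells could also reach plasma cells. Gzma, Gzmb and Cd7 were taken as T-cell references after the values were seen, with the Trdc gate as the source. On this scale Itgae in plasma cells was at 1.30 (1.06 to 1.57) and 1.60 (1.07 to 2.32), against 228 and 2084 with epithelial references. By the rule used above it was still above 1 in both mice, at a far lower ratio. Cdh1 was at 4.26 (2.87 to 6.11) and 2.66 (0.856 to 6.27), and Jaml at 6.79 (5.83 to 7.88) and 2.96 (1.67 to 4.87). Epcam reached 197 and 381 and Cldn7 79.6 and 132. With T cells as the source, Epcam, Itgae, Jaml and Cldn7 were thus above 1 in both mice. Epithelial RNA is no part of this expectation, and the source gave only 4.39 and 0.0681 expected UMIs of Cldn7. For genes high in epithelium this ratio therefore cannot show an amount beyond free RNA. The share over all genes was not computed on this scale.

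Splits inside the gates, chosen after values were seen, showed how the genes varied among cells. Trdc-gated cells with a Cd8a UMI (1206 and 2679 cells) had Itgae at 950.5 and 1008 CPM, and those without (222 and 451) at 659.6 and 710.3. Epcam was at 155 and 104 with Cd8a and at 211 and 78.3 without, so the mice went opposite ways. The references went the same ways, at 416 with Cd8a against 1757 without in mouse 1 and at 221 against 57.1 in mouse 2, and their part in the Epcam difference was not tested. In plasma cells, nearly all of which were led by Igha (1769 of 1773 and 502 of 502), Epcam was at 91.7 and 78.1 in cycling cells and at 78.1 and 70.1 in the others.

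UMI sums of the 8 gates in 2 mice were then fitted together, and the Trdc gate, the Cd8b1 gate and plasma cells were each compared with the Cd4 gate, so that the 3 comparisons share its 2 sums. Only 5 of 7 check markers of the Cd4 gate were highest there, and RNA of other cells stood in its sums. The 5 macrophage markers summed to 2470 and 1869 CPM in the Cd4 gate, against 439 and 255 in the Trdc gate, 598 and 751 in the Cd8b1 gate and 50.7 and 20.3 in plasma cells, with Apoe at 1857 and 1276 in the Cd4 gate and at 230.2 and 89.4 in the Trdc gate. All 5 were higher in the Cd4 than in the Trdc gate in both mice, and none of the 5 was at 0 in these gates. The 7 epithelial markers summed to 2185 and 15.5 CPM in the Cd4 gate, against 439.9 and 161 in the Trdc gate. In mouse 2, 5 of them were at 0 in the Cd4 gate. In mouse 1 Agr2 alone made up 1339.5 CPM of the Cd4 sum (982 UMIs), though it was at 121 in epithelial cells. The part of these other cells in the differences from the Cd4 gate was not tested. All 8 genes passed the filter on low counts. On the log2 scale Itgae was 2.15 ± 0.44 (SE) higher in the Trdc gate than in the Cd4 gate and 1.79 ± 0.43 higher in the Cd8b1 gate, while the plasma value was −4.20 ± 0.49. Cdh1 differed by 1.86 ± 0.48, 1.42 ± 0.49 and −3.04 ± 0.57, and Jaml by 0.60 ± 0.56, 0.49 ± 0.56 and −3.72 ± 0.62. Epcam differed by −0.77 ± 1.17, −1.01 ± 1.19 and 0.39 ± 1.16, and the Cd4 sum of mouse 1 holds the barcode with 233 of its 267 Epcam UMIs. Cxadr differed by −0.86 ± 0.83 in the Trdc gate and Cldn7 by −0.78 ± 1.67.

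Other junction genes, 43 in a fixed list, and 25 lymphocyte adhesion genes give the setting. By edgeR's quasi-likelihood test with Benjamini-Hochberg adjustment, 277 of 11240 genes were higher (2.46%) and 366 lower (3.26%) in the Trdc gate than in the Cd4 gate. DESeq2 called 137 higher and 668 lower, and the fit with a replicate block for the mouse called 570 and 554. None of the 36 tested junction genes was called by edgeR or by DESeq2, and 7 had an unadjusted edgeR p under 0.05. The median log2 difference of the 36 was −0.18, against 0.19 over all genes, but its sign depended on the cells used. Without cells holding epithelial gate genes it was 0.74 (0.24 over all genes), and 1 junction gene was higher. With 2 or more UMIs of the gating gene it was 1.70 (0.33 over all genes). Under the replicate block 2 of the 36 were lower, and without the filter on low counts 1 was higher and 6 lower of 42. Of the 22 tested adhesion genes 3 were higher and 9 lower, with a median of −0.01. A left-out mouse could not be tried here, as it leaves no residual degrees of freedom.

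The 3 that rose in the Trdc gate over the Cd4 gate were Itga1, the α1 chain of a collagen-binding integrin of tissue-resident T cells, the receptor gene Cd160, and Cd96, a receptor for nectin-like molecules. Itga1 was at 727 and 798 CPM against 60.02 and 227 in the Cd4 gate (log2 difference 2.60 ± 0.36, edgeR adjusted p = 0.00341), a call lost with only these 2 gates in the fit (edgeR adjusted p = 0.0772). Cd160 was at 323 and 306 against 42.3 and 165 (1.81 ± 0.40, edgeR adjusted p = 0.0231), a call lost in the same fit (edgeR adjusted p = 0.161) and per total UMIs (edgeR adjusted p = 0.0527). Cd96 was at 365 and 424 against 62.7 and 261 (1.48 ± 0.39, edgeR adjusted p = 0.0487), and that call was lost in 6 of the alternatives, DESeq2 among them (adjusted p = 0.199). Each was higher in both mice.

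Of the 9 that fell, 4 are given here with their values. S1pr1, the receptor by which lymphocytes leave tissue, was at 3.43 and 3.82 CPM against 92.8 and 74.5 (−4.54 ± 0.43, edgeR adjusted p = 0.00102). Cd2 was at 4.88 and 4.23 against 130 and 83.8 (−4.62 ± 0.40, edgeR adjusted p = 0.000311), Cd6 at 9.21 and 10.7 against 87.3 and 124 (−3.34 ± 0.40, edgeR adjusted p = 0.00138), and Cadm1 at 0.181 and 0.103 against 19.1 and 18.6 (−6.74 ± 1.14, edgeR adjusted p = 0.00680). The call of Cadm1 was lost without cells holding epithelial gate genes (edgeR adjusted p = 0.0961). Alcam, Itga4, Itgal and Itgb1 were lower too. Itgb7, the partner chain of the Itgae product, was at 242 and 258 against 130 and 255 and did not pass (0.48 ± 0.30, edgeR adjusted p = 0.387).

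In the Cd8b1 gate edgeR called 4 genes higher (0.0356%) and 23 lower (0.205%), against 56 and 112 under the replicate block. None of the 36 junction genes and none of the 22 adhesion genes was called. At an unadjusted edgeR p under 0.05 there were 1 and 9 of them, DESeq2 called 0 junction genes and 1 adhesion gene in each direction, and under the replicate block 4 adhesion genes were higher and 1 lower. The lowest edgeR adjusted p among the adhesion genes was 0.0789. With only the 2 compared gates in the fit, 11 junction genes passed the filter on low counts and none was called. For the rest of that list, the lack of a call says little.

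In plasma cells edgeR called 1703 genes higher (15.2%) and 1621 lower (14.4%), a split that rests on the TMM scaling: per total UMIs, an alternative added after the values were seen, 280 were higher and 8067 lower and the median of all genes moved to −1.88. DESeq2 called 1237 higher and 1942 lower. Of the junction genes 4 of 36 were lower and none higher. They were Nectin1 (−5.32 ± 1.46, edgeR adjusted p = 0.0153), an adhesion molecule of adherens junctions, Afdn (−1.96 ± 0.66, edgeR adjusted p = 0.0405), which links nectins to actin, the desmosome gene Pkp3 (−1.19 ± 0.37, edgeR adjusted p = 0.0278) and the protease inhibitor gene Spint1 (−2.30 ± 0.64, edgeR adjusted p = 0.0171). Under the replicate block 9 were lower and 2 higher. The median log2 difference of the list was −1.08. It was 0.55 without cells holding epithelial gate genes and 2.43 with 2 or more UMIs of the gating gene. In each of these 2 alternatives 3 junction genes were higher and 4 lower. With only the 2 compared gates in the fit, 20 passed the filter on low counts. Afdn lost its call in 3 of the alternatives (edgeR adjusted p up to 0.747) and Spint1 and Pkp3 in 1 each (0.0866 and 0.111).

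Of the adhesion genes 13 of 22 were lower in plasma cells and 2 higher, beside medians of −2.59 for the list and 0.06 for all genes. The largest differences among the lower ones were those of Cd6 (−7.54), Cd226 (−6.04), Cadm1 (−5.99), Cd96 (−5.66) and Crtam (−5.06 ± 0.99, edgeR adjusted p = 0.00304). The calls of Crtam (2 alternatives, edgeR adjusted p up to 0.376) and Cadm1 (1, 0.0559) did not hold throughout. Alcam, the ligand of the Cd6 product, was higher, at 37.7 and 44.3 CPM against 24.6 and 31.0 in the Cd4 gate (2.52 ± 0.35, edgeR adjusted p = 0.000176), a call lost per total UMIs (0.59, edgeR adjusted p = 0.176). Itga4 was called higher (1.14 ± 0.19, edgeR adjusted p = 0.000582) although its CPM was lower, 122 and 138 against 184 and 289, and per total UMIs it was called lower (−0.85, edgeR adjusted p = 0.00695).

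**Figure D5:**
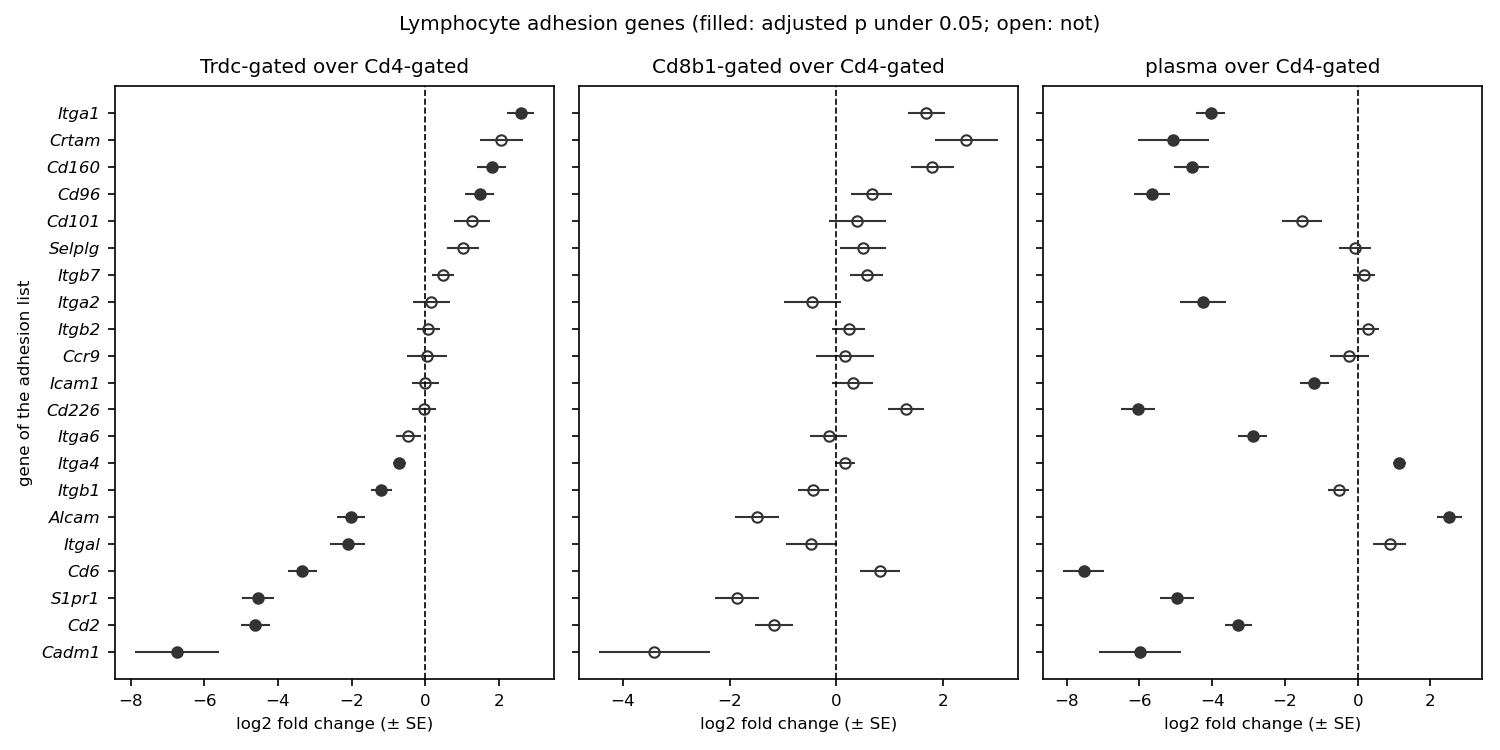
Log2 fold change (± SE) of 21 of the 22 tested lymphocyte adhesion genes in the 3 comparisons with the Cd4 gate, filled where the edgeR adjusted p is under 0.05. The Trdc gate has 3 filled points to the right and 8 to the left, the Cd8b1 gate none, and plasma cells 2 and 12.

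Ligands or partners of the 8 genes were read whatever their value. Spint2, a protease inhibitor that Epcam is known to be tied to in epithelium, was at 428 and 348 CPM in epithelial cells, 71.5 and 52.6 in the Trdc gate and 80.2 and 77.1 in plasma cells, and did not pass in the Trdc gate (edgeR adjusted p = 0.418) or in plasma cells (1.29 ± 0.66, edgeR adjusted p = 0.168), where it passed under the replicate block (1.40, edgeR adjusted p = 0.0215). F11r, another junctional adhesion molecule, was at 52.1 and 36.7 in epithelial cells and at 5.42 and 3.92 in the Trdc gate (edgeR adjusted p = 0.158). In plasma cells, at 1.24 and 1.08, F11r did not pass (−1.996 ± 0.80, edgeR adjusted p = 0.0801) except under the block and 4 other alternatives (block −2.03, edgeR adjusted p = 0.0311). Tjp1, the scaffold ZO-1, was at 38.4 and 48.6 in epithelial cells, 1.99 and 0.723 in the Trdc gate and 0 in the Cd4 gate of both mice. Klrg1, an E-cadherin receptor of T cells, had too few UMIs to be tested.

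The genes most like each of the 8 over the 16 gate sums, by Pearson's r of log2 CPM, are listed here as a description. The points share libraries and depth, so r carries no p. Cldn7 was followed by Krt19 (0.989) and Pigr (0.987), and Cldn3 by Sectm1b (0.987), Oit1 (0.982) and 2310030G06Rik (0.980). Itgae was followed by Ldlrad4 (0.969) and Rab11fip4 (0.953), and Cdh1 by Tes (0.964), Lta4h (0.916) and Id2 (0.878). Epcam had Gstt1 (0.926), Tbrg1 (0.904) and Pde4dip (0.898), and Jaml had Parp12 (0.947), Arrdc4 (0.943) and Lgals3 (0.942). Cxadr had Areg (0.942), C77080 (0.941) and Ccdc85c (0.939), and Ocln had Dab2ip (0.937), Sox4 (0.924) and Prrg2 (0.916), both from few UMIs.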

How the data were processed

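The authors made the deposited UMI counts per gene and barcode with Cell Ranger 6.1.2 on mm10 from 10x 3′ v3 libraries of 2 APC mice; the annotation release and strand setting were not given in the sources used here, and no normalization was applied. Barcodes with over 100 genes, over 400 UMIs, under 5% mitochondrial and under 10% haemoglobin UMIs were kept, as in the study's methods (7941 of 9645 and 6957 of 8800). No cell labels from the study entered; gates were set on transcripts, a barcode with 5% or more pancreatic enzyme UMIs was left out, and 8 and 0 cells lay in 2 gates. Doublets were kept: Scrublet (scanpy 1.11.5) called 1 and 0 cells and so did not work, and the 8% of cells with the highest scores were left out as an alternative. Counting intervals are exact Poisson, binomial or conditional ones at 95% and cover counting error only (SciPy 1.17.1, Python 3.11.15).

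The 8 genes, the gates and the lists were chosen with earlier results of these data known. Named genes were the 8, their references and listed partners, the extremes of the control genes, the 5 called list genes with the largest change per direction and comparison, and the 3 genes most alike by r. Of the adhesion list 24 of 25 genes were in the files (not Cd244a), and Klrg1 and Tigit did not pass the filter. Of the 43 junction genes 7 did not pass. A few genes that meet these rules are not reported here.

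Raw counts were summed per gate and mouse (16 sums) and fitted with edgeR 4.0.16 in R 4.3.3 (TMM, filterByExpr, quasi-likelihood, two-sided, adjusted p under 0.05 over 11240 genes). DESeq2 1.42.0 was an alternative. The p-values measure the spread between these 2 mice. Sums with the same number come from 1 animal and are paired; deviations of gates from their means correlated at 0.0774 to 0.629 (28 pairs, median 0.249). The main fit had no block for the mouse. The fit was tested on simulated counts with 200 genes changed 8-fold, drawn without pairing by mouse. In the Trdc, Cd8b1 and plasma comparisons it called 97%, 99% and 98% of the changed genes. Of all its calls, 8.49%, 4.35% and 3.92% were false, so the share in the Trdc comparison was above the threshold of 0.05. T-cell references, scaling outside immunoglobulin genes and scaling by total UMIs were added after the values were seen.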

Additional observations from a re-analysis of the deposited data

Results flagged for a closer look

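Barcodes that the filters removed (1704 with 4610066 UMIs in mouse 1 and 1843 with 3242483 UMIs in mouse 2) entered no comparison above, yet they held UMIs of all 8 genes, more than the 3 UMIs that a count of 0 would allow. Over both mice they held 1739 UMIs of Epcam, 2410 of Itgae, 557 of Cdh1, 1110 of Jaml, 98 of Cxadr, 820 of Cldn7, 159 of Cldn3 and 35 of Ocln. In UMIs per 1000000 UMIs (CPM) of the removed barcodes, Epcam was at 255 and 174, Cldn7 at 131 and 66.6, and Cxadr at 12.8 and 12.0. Itgae was at 108 in mouse 1 and 590.0 in mouse 2, and Cdh1 at 51.6 and 98.4. Which cells these UMIs came from was not tested.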

How the results depend on the processing

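Of the 8 genes, those above the free-RNA level in the Trdc gate (5) were 3 with cycling epithelial cells as the source, 3 with epithelial barcodes of raised mitochondrial UMIs and 1 with B cells. Those of the Cd8b1 gate (4) were 2 with the raised-mitochondrial source and 1 with B cells, and those of plasma cells (3) were 1 with B cells. With 1 mouse left out the counts were 5 to 5 in the Trdc gate, 4 to 6 in the Cd8b1 gate and 4 to 5 in plasma cells, the 5 without mouse 1. The share over all genes is given only for the main source and both mice. These changes in count are therefore no finding about the 8 genes. With these 3 sources 10 of the mean log2 ratios changed sign: with the raised-mitochondrial source to −0.40 for Epcam and −1.97 for Cxadr in the Trdc gate, −1.20 for Epcam in the Cd8b1 gate and −1.93 for Cdh1 in plasma cells. With B cells it was −1.96 for Cxadr (Trdc gate), −0.023 for Epcam (Cd8b1 gate), and −0.56 for Itgae and −1.60 for Cdh1 (plasma cells). B cells of mouse 2 held only 4 reference UMIs and none of Cxadr or Itgae, so the values of these genes are lower bounds set with 3 UMIs in place of 0 and show no turn. In mouse 1 alone Cxadr was at 2.81 (0.449 to 116) and Itgae at 0.874 (0.486 to 1.71). With cycling cells it was −0.18 for Epcam in the Cd8b1 gate and −0.15 for Cdh1 in plasma cells. Of the other values of this kind, 251 moved by less than the spread between mice and 71 by more, with the sign kept.

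Genes called in the Trdc comparison (643) were 1305 without the filter on low counts, 1124 with the mouse as a replicate block (570 higher, 554 lower) and 302 with only the compared gates, and DESeq2 gave 137 higher and 668 lower. In the Cd8b1 comparison (27) they were 141 with DESeq2, 481 without the filter, 168 with the replicate block, 8 with only the compared gates, 68 without the highest doublet scores, 132 with 2 or more UMIs of the gating gene and 47 without cells holding epithelial gate genes. In the plasma comparison (3324) they were 8347 by total UMIs. Listed genes called (31) were 62 without the filter and 52 by total UMIs. Itga4 in plasma cells turned to −0.85 by total UMIs, and 20 other values of listed genes lost and 13 gained a call. Beside the counts, the replicate block changed 2 calls of named genes, F11r and Spint2 in plasma cells. The cause was not tested. Leaving out a mouse was not run for these fits, since 1 sum a gate leaves no residual degrees of freedom. Depth limits Cxadr, Ocln and Cldn3 outside epithelium.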
